A study of Mus musculus with 12 samples.

Results

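The retinas compared here came from mice that all received minocycline and differed in the antibody given to them as pups, APB5 or control IgG. The genes described are those on the autosomes and the mitochondrial genome, chosen by chromosome and not by their values: 46179 of the 50559 genes in the count table, of which 18974 had enough reads to be tested. The comparison used 6 of the 12 RNA-Seq libraries of the series, 3 labelled APB5+Mino and 3 labelled IgG+Mino. X- and Y-linked genes were fitted and adjusted with the rest but are not described.

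All mice were WT on the C57BL6/J strain, and the labelled tissue was retina, collected on postnatal day 28. On day 1 the pups received 30 µg of APB5, a rat monoclonal antibody against mouse PDGFRβ, or of an IgG isotype control. Both groups then received minocycline, a tetracycline antibiotic, by daily i.p. injection from day 5 to day 27 at 45 mg/kg body weight. The study used mice of both sexes, and the labels give neither the sex behind a library nor whether a library is 1 animal, so the p-values measure the spread between these libraries. The 6 libraries labelled IgG or APB5, from mice without minocycline, served to set the antibody difference without minocycline beside that with it, and these differences share no library.

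Pericytes wrap the capillaries of the retina and are recruited to new vessels by PDGFB, which endothelial cells secrete and pericytes sense through PDGFRβ. When that signal is blocked in pups, capillaries form with few pericytes and leak, and microglia, the resident macrophages of the retina, and Müller cells, its radial glia, respond. Minocycline is widely used to dampen microglial activation. The comparison asked what of the APB5 difference was left, or newly appeared, when both groups were given minocycline.

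Total counts were 52740545 to 59265364 in the 6 libraries, and 26897 to 27229 genes were detected in each. Rod, cone, bipolar, Müller glial and ganglion cell markers were present in every library, and the corneal Krt5 and Krt12 did not exceed 0.564 CPM (read counts scaled to library size by TMM over all 12 libraries). The first principal component of the 6 libraries, with 38.6% of the variance, was negative in the 3 IgG+Mino libraries and positive in the 3 APB5+Mino libraries. The libraries differed in sex-linked RNA: APB5+Mino replicate 3 had 141589 counts of Xist, the RNA of the inactive X, and the other 5 libraries had at most 38. Without minocycline all 3 IgG libraries (47210 to 91647 counts) and APB5 replicate 3 (83956 counts) had Xist and APB5 replicates 1 and 2 had at most 14 counts, so every value of APB5 over IgG and the interaction compare groups of unequal sex-linked RNA, and with Xist as a covariate APB5 against IgG had 1040 higher and 128 lower calls in place of 0 and 0. The summed lens markers Cryaa, Crygc and Mip were 1164 CPM in IgG+Mino replicate 3 and 3.12 to 88.5 CPM in the other 5. Pdgfrb, whose product the antibody binds, was 15.3, 18.6 and 14.7 CPM in IgG+Mino and 15.1, 14.4 and 14.6 CPM in APB5+Mino, and the antibody groups were not separated by edgeR's quasi-likelihood test (log2 fold change −0.14, SE 0.118, adjusted p = 0.469).

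Under minocycline, 224 genes, 1.18% of those tested, were called, that is, they had a Benjamini-Hochberg adjusted p of at most 0.05 in edgeR's quasi-likelihood test and differed by at least 1 on the log2 scale. Of these, 159 were higher in APB5+Mino (0.838% of the genes tested) and 65 were lower (0.343%). Without the fold threshold, 919 genes were higher (4.84%) and 636 lower (3.35%), so that 1555 (8.2%) passed the adjusted p, 5604 (29.5%) had an unadjusted p under 0.05 and the median log2 fold change of all genes was −0.01. Groups that did not overlap were common: 6751 of the genes tested (35.6%) had them, 17.7% on the higher and 17.9% on the lower side. Called genes had log2 fold changes of 1 to 2.93 when higher, with a median of 1.25, and of −6.33 to −1 when lower, with a median of −1.33. The lower genes included 10 immediate early genes and the microglial Cx3cr1 and Fcrls. The higher genes included 45 long noncoding RNAs, the cholesterol exporter Abca1, the vascular genes Lrg1 and Adm, and 5 zinc finger genes named Zfp.

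The number of calls depended on single libraries. It was 2 higher and 0 lower without APB5+Mino replicate 3, the library with Xist, 0 and 0 without APB5+Mino replicate 2, where edgeR's test left 3677 genes at an unadjusted p under 0.05, and 2 and 3 without IgG+Mino replicate 3, the library with lens RNA. Without IgG+Mino replicate 1 it was 251 higher and 173 lower, and without APB5+Mino replicate 1 it was 110 and 39. Groups did not overlap in all 159 higher and 65 lower genes, so a change of sign was hardly possible when a library was left out. None changed sign, and 192 to 219 of the 224 genes still differed by at least 1 on the log2 scale in these 6 fits.

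**Figure D1:**
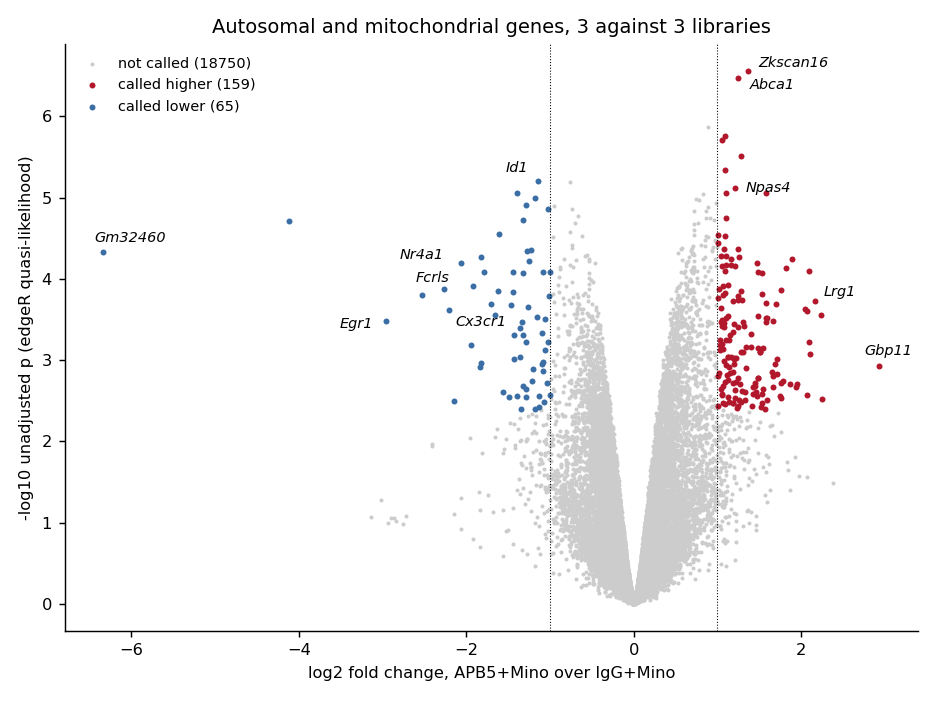
Each point is 1 of 18974 autosomal or mitochondrial genes, with its log2 fold change of APB5+Mino over IgG+Mino on the x axis and the −log10 of its unadjusted p from edgeR's quasi-likelihood test on the y axis. The 159 genes called higher crowd close to a log2 fold change of 1, and the 65 called lower reach further out, to −6.33 for Gm32460.

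Immediate early genes, which cells transcribe within minutes of a stimulus and whose products are mostly transcription factors, were lower in APB5+Mino retinas. Of the 20 list members tested, 12 were lower at an adjusted p of at most 0.05 (60%, against 3.35% of all genes). Called lower were 10, while 1, Npas4, was called higher. The median log2 fold change of the list was −1.01, against −0.01 for all genes, and it was −1.15 to −0.76 when any 1 of the 6 libraries was left out, with 0 to 11 members called lower in those fits. In mice without minocycline the list had a median of 0.88 in APB5 over IgG, with all 20 members above 0. None of the 20 passed the adjusted p there or in the interaction by edgeR's quasi-likelihood test. The APB5 and IgG groups also differed in sex-linked RNA.

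Egr1, a zinc finger transcription factor, was 88.2, 471 and 154 CPM in IgG+Mino and 26.4, 28.9 and 36.2 CPM in APB5+Mino. The IgG+Mino libraries spread over a wide range, yet the lowest of them was above every APB5+Mino library (log2 fold change −2.96, SE 0.528, adjusted p = 0.0196). Nr4a1, an orphan nuclear receptor, was 129, 363 and 249.5 CPM in IgG+Mino and 59.1, 58.6 and 59.1 CPM in APB5+Mino (log2 fold change −2.06, SE 0.297, adjusted p = 0.0125). Fos, a subunit of the AP-1 factor, was 48.9, 185 and 90.2 CPM in IgG+Mino and 28.6, 33.6 and 29.3 CPM in APB5+Mino (log2 fold change −1.82, SE 0.387, adjusted p = 0.0292). Its partner Junb was 38.9, 104 and 61.2 CPM in IgG+Mino and 20.9, 22.4 and 21.4 CPM in APB5+Mino (log2 fold change −1.66, SE 0.290, adjusted p = 0.0189). In each of these genes the APB5+Mino libraries lay close together and the IgG+Mino libraries did not, with IgG+Mino replicate 2 the highest and replicate 1 the lowest.

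The other called members were Egr2 (−2.14), Klf4 (−1.79), Nr4a3 (−1.62), Egr4 (−1.07), Dusp1 (−1.02), a phosphatase that switches off MAP kinases, and Ier2 (−1.01), with log2 fold changes in parentheses, and Jun (−0.77) and Atf3 (−0.71) passed the adjusted p alone. Egr2 was low, at 0.235 to 1.06 CPM in IgG+Mino and 0.0587 to 0.143 CPM in APB5+Mino. For 11 of the 20 members all 3 APB5+Mino libraries were below each of the 9 other libraries of the series, a pattern held by 9.17% of all genes tested. Npas4, which neurons switch on after calcium entry, was 13.7, 14.3 and 12 CPM in IgG+Mino and 25.8, 31.9 and 34.4 CPM in APB5+Mino, so that it was higher in every APB5+Mino library (log2 fold change 1.2, SE 0.133, adjusted p = 0.0114). Arc and Egr3 did not pass, with log2 fold changes of −0.29 and −0.28 (adjusted p = 0.523 and 0.662).

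**Figure D2:**
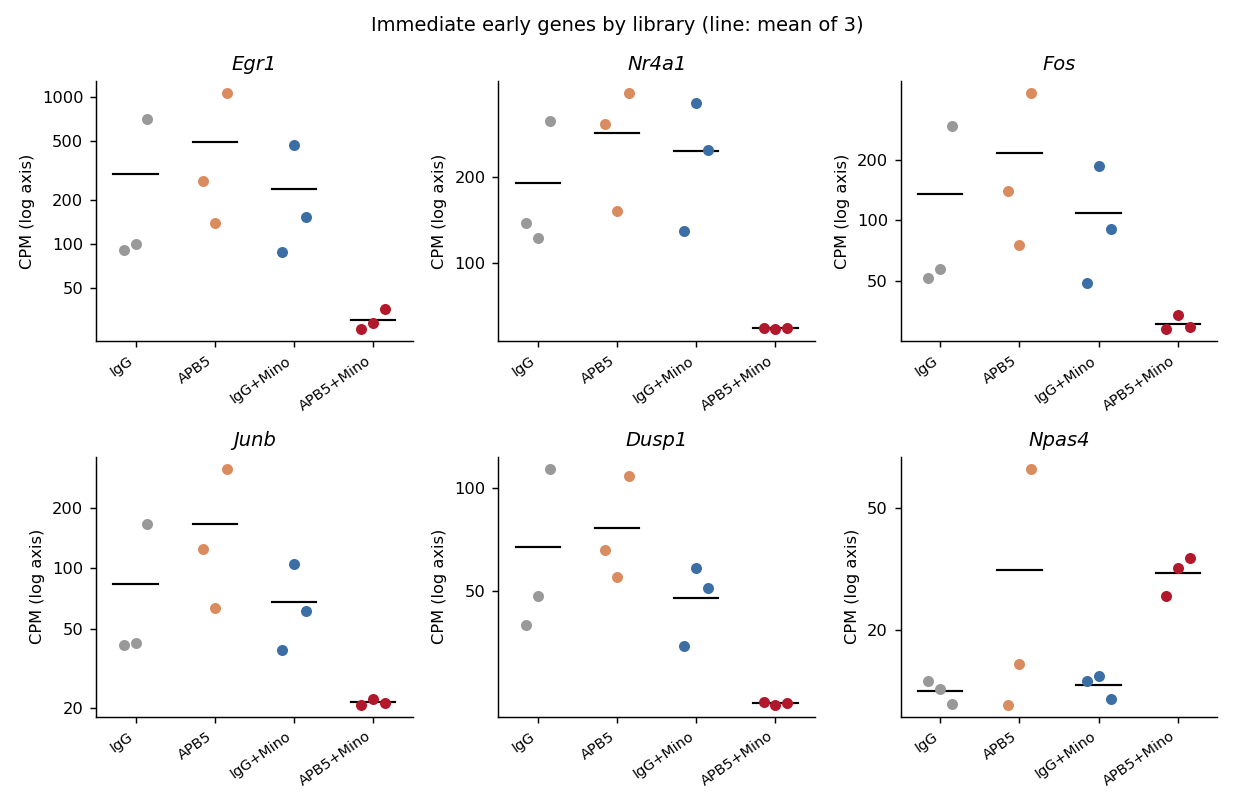
Each panel gives the CPM of 1 gene on a log axis in the 12 libraries, with 3 points and their mean as a line in each of the groups IgG, APB5, IgG+Mino and APB5+Mino. In Egr1, Nr4a1, Fos, Junb and Dusp1 the APB5+Mino points lie close together below the 3 IgG+Mino points, and in Npas4 they lie above them.

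Promoter sequence of 16 of the 20 members was matched by symbol in the RefSeq table of build GRCm38.p6. Arc, Egr1, Egr3 and Ier2 were not matched. In the 250 bases before the start, on either strand, 13 of the 16 held TGACG, the core of the cAMP response element (CRE), against 27.5% of the 13248 tested genes with a promoter. The full CRE, TGACGTCA, which contains that core, was in 2 of 16 against 2.73%, a CArG box, the heart of the serum response element, in 1 of 16 against 1.4%, and an E-box, CACGTG, in 3 of 16 against 9.06%. Among genes called lower, 18 of 43 held the core, and among those called higher 22 of 109. The 150 bases before the start are shown for 4 members that were called lower and for Npas4, which was called higher. They are written 5′ to 3′ on the gene's strand, capitals mark the core or the full site on either strand, and the coordinates are those of an exact match in GRCm39.
Nr4a1, chr15:101164577-101164726, plus strand: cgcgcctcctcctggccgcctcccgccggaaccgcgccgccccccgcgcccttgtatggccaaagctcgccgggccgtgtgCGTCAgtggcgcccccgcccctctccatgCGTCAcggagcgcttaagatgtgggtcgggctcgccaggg
Fos, chr12:85520514-85520663, plus strand: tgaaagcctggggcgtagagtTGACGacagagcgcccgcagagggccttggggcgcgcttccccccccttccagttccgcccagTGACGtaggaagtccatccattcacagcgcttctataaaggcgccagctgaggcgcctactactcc
Junb, chr8:85705378-85705527, minus strand: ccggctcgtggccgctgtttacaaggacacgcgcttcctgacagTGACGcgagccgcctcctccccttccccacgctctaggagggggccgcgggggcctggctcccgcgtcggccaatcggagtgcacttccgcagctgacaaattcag
Dusp1, chr17:26727447-26727596, minus strand: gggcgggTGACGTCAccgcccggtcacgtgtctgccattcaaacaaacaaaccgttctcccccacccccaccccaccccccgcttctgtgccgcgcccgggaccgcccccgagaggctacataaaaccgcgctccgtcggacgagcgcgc
Npas4, chr19:5040000-5040149, minus strand: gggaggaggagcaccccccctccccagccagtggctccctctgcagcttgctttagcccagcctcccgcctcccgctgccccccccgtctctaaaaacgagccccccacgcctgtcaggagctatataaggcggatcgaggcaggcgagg
Dusp1 held a full site in the stretch shown, Nr4a1 and Fos held 2 cores each and Junb 1, and the core found for Npas4 lay further upstream than these bases.

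Outside that list, the lower genes with the smallest p included Id1 and Id2, which bind bHLH factors and keep them from DNA and which BMP signals induce. Id1 was 16.5, 17.4 and 15.8 CPM in IgG+Mino and 7.82, 6.50 and 8.03 CPM in APB5+Mino, with no overlap between the groups (log2 fold change −1.15, SE 0.123, adjusted p = 0.0114). Id2 was 19.6, 23.9 and 24.3 CPM in IgG+Mino and 11.8, 11.5 and 10 CPM in APB5+Mino (log2 fold change −1.02, SE 0.121, adjusted p = 0.0114). Zfp36, which binds AU-rich mRNA and shortens its life, was 16.3, 20.9 and 21.2 CPM in IgG+Mino and 7.96, 9.45 and 8.16 CPM in APB5+Mino (log2 fold change −1.18, SE 0.135, adjusted p = 0.0114). These genes fell to a similar level in all 3 APB5+Mino libraries. Cebpb, a transcription factor of inflammatory responses, differed by −1.44 on the log2 scale (SE 0.214, adjusted p = 0.0125). Ccn2, a matricellular protein, was 58.8, 74.9 and 86.9 CPM in IgG+Mino and 35.4, 23.4 and 31.8 CPM in APB5+Mino (log2 fold change −1.28, SE 0.175, adjusted p = 0.0125). Ciart, a repressor in the circadian clock, was 46.0, 72.0 and 50.0 CPM in IgG+Mino and 25.3, 25.6 and 20.9 CPM in APB5+Mino (log2 fold change −1.23, SE 0.168, adjusted p = 0.0125).

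Chromatin protein genes were also among them. Hmgb2, a DNA-bending protein, was 24.7, 16.1 and 21.0 CPM in IgG+Mino and 7.57, 8.44 and 8.55 CPM in APB5+Mino (log2 fold change −1.33, SE 0.163, adjusted p = 0.0117), and the linker histone H1f8 differed by −1.61 on the log2 scale (SE 0.208, adjusted p = 0.0125). The remaining lower genes chosen by p were Gm4739 (−1.40), Gm20875 (−1.28) and Gm32460. Gm32460 was 4.65, 3.06 and 1.06 CPM in IgG+Mino and had no count in the 3 APB5+Mino libraries, which makes it at least 49.8-fold lower when 3 counts in a library are taken as the limit of detection. Gm32460 and Gm4739 are annotated as pseudogenes, and reads of such copies may be shared with other genes, so their values are uncertain.

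The higher genes with the smallest p had little spread within a group. Zkscan16, a zinc finger gene, was 14.6, 14.7 and 13.4 CPM in IgG+Mino and 33.5, 37.9 and 38.4 CPM in APB5+Mino (log2 fold change 1.36, SE 0.102, adjusted p = 0.00342). Abca1, the transporter that loads cholesterol onto lipoproteins, was 19.5, 21.3 and 22.8 CPM in IgG+Mino and 50.5, 53.8 and 46.9 CPM in APB5+Mino (log2 fold change 1.25, SE 0.0955, adjusted p = 0.00342). Abca1 and Zkscan16 were still called in 5 and 5 of the 6 fits that left out a library. Other genes held less well: Crlf3, Neat1 and Cpeb1 were called in 3 of these fits, Cx3cr1, Id2 and Ier2 in 2, and Fosl1, Adm and Angpt1 in 1. Crlf3, a cytokine receptor-like factor, was 140.2, 117 and 124 CPM in IgG+Mino and 251, 292 and 265 CPM in APB5+Mino (log2 fold change 1.08, SE 0.100, adjusted p = 0.00784). Neat1, the noncoding RNA that scaffolds paraspeckles, was 26.7, 26 and 23.3 CPM in IgG+Mino and 47.7, 52.0 and 63.6 CPM in APB5+Mino (log2 fold change 1.10, SE 0.124, adjusted p = 0.0114). The APB5+Mino libraries were above the IgG+Mino libraries in each of these genes. Cpeb1, which binds mRNA tails and regulates translation, differed by 1.08 on the log2 scale (SE 0.112, adjusted p = 0.0114), and the others were Thap2 (1.10), Gm14295 (1.05), Gm46741 (1.28) and Gm33148 (1.57).

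Microglial genes were lower in APB5+Mino. All 20 tested members of the microglia and macrophage list had a log2 fold change below 0. At an adjusted p of at most 0.05, 6 were lower (30%, against 3.35% of all genes), and Cx3cr1 and Fcrls were called. The list median was −0.53 (−0.69 to −0.47 leaving out 1 library, with 0 to 11 members lower), and its summed level was 61.3, 71.8 and 72.9 CPM in IgG+Mino and 46.5, 42.2 and 44.3 CPM in APB5+Mino. In bulk tissue, fewer cells of a type and less RNA per cell cannot be told apart. Without minocycline the list had a median of 1.02 in APB5 over IgG, where 1 library stood out: the summed markers Cx3cr1, P2ry12 and Csf1r were 13.7 and 12.7 CPM in APB5 replicates 1 and 2, within the 10.6 to 20.6 CPM of the IgG libraries, and 49.8 CPM in replicate 3.

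Cx3cr1, the fractalkine receptor of microglia, was 1.18, 2.11 and 1.37 CPM in IgG+Mino and 0.251, 0.176 and 0.489 CPM in APB5+Mino (log2 fold change −2.21, SE 0.379, adjusted p = 0.0182). Fcrls, another marker of resident microglia, was 0.670, 0.903 and 1.15 CPM in IgG+Mino and 0.197, 0.215 and 0.226 CPM in APB5+Mino (log2 fold change −1.92, SE 0.3, adjusted p = 0.015). These are low levels. The groups did not overlap in either gene, as in 17.9% of all genes in that direction. Olfml3 (−0.69), Tyrobp (−0.99) and Fcer1g (−0.73) were among those that passed the adjusted p alone, whereas P2ry12, Trem2, Tmem119 and Csf1r, with log2 fold changes from −1.13 to −0.52, did not. Aif1, which encodes Iba1, was 0.272, 0.266 and 0.297 CPM in IgG+Mino and 0.233, 0.372 and 0.113 CPM in APB5+Mino and did not pass (log2 fold change −0.19, adjusted p = 0.781).

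Genes of disease-associated microglia, a phagocytic state, lay on the same side: 13 of 13 were below 0, with a median of −0.45. Lower at an adjusted p of at most 0.05 were Spp1 (−0.77), Apoe (−0.55), Ctsz (−0.51), Ctsd (−0.49), Ctsb (−0.45) and Cd9 (−0.41). That was 46.2% of the list, against 3.35% of all genes, and 0 to 7 members were lower when 1 library was left out. Apoe is also made by Müller cells, and the cathepsins by many cells. Among 17 tested complement genes, 16 were below 0 with a median of −0.52. At the adjusted p 4 were lower (23.5%, against 3.35% of all genes), and 0 to 8 when 1 library was left out. The 4 were the 3 chains of C1q, which starts the classical pathway, and Clu, which binds terminal complexes. C1qa was 6.72, 6.83 and 6.50 CPM in IgG+Mino and 3.60, 3.41 and 3.78 CPM in APB5+Mino, a narrow spread in both groups (log2 fold change −0.89, SE 0.130, adjusted p = 0.0125). C1qb had a log2 fold change of −0.77 (adjusted p = 0.021), C1qc one of −0.66 (adjusted p = 0.0412) and Clu one of −0.38 (adjusted p = 0.0349).

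C3, on which all complement pathways meet, was 2.50, 2.89 and 2.28 CPM in IgG+Mino and 1.66, 1.6 and 1.96 CPM in APB5+Mino, with groups that did not overlap (log2 fold change −0.54, SE 0.186, adjusted p = 0.0942). C4b was 7.91, 12.8 and 10.7 CPM in IgG+Mino and 8.07, 9.39 and 8.01 CPM in APB5+Mino (log2 fold change −0.30, SE 0.174, adjusted p = 0.289), and its reads may be shared with the paralog C4a. Cfi had a log2 fold change of −1.35 (adjusted p = 0.0718). Cfb, Casp1, Ccl2 and Actg2 had at most 13 counts in any of the 6 libraries and were too low to be tested. Casp1 had 2, 3 and 1 counts in IgG+Mino and 8, 5 and 4 in APB5+Mino, and Cfb had 3, 3 and 7 and 2, 1 and 3.

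Genes of reactive gliosis were mixed. Of 20 tested, 2 were higher (10%, against 4.84% of all genes) and 3 lower (15%, against 3.35%) at an adjusted p of at most 0.05. The median was −0.09, whereas it was 2.06 for APB5 over IgG. None of the 20 passed the adjusted p there or in the interaction by edgeR's quasi-likelihood test. APB5 replicate 3 stood apart among those libraries, with summed rod markers of 10728 CPM, against 50798 and 43152 CPM in replicates 1 and 2. Gfap, the intermediate filament of reactive glia, was 50.0, 41.1 and 56.1 CPM in IgG+Mino and 27.9, 39.1 and 27.6 CPM in APB5+Mino (log2 fold change −0.64, SE 0.160, adjusted p = 0.0457). Cebpd (−0.63) and Gadd45b (−0.62) were lower too. Osmr, the oncostatin M receptor, was 6.82, 9.19 and 8.31 CPM in IgG+Mino and 12.6, 15.5 and 13.7 CPM in APB5+Mino (log2 fold change 0.78, SE 0.142, adjusted p = 0.0198), and Fosl1, an AP-1 subunit, was called higher (log2 fold change 1.42, SE 0.336, adjusted p = 0.0394).

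Several genes that the study examined in the APB5 retina did not pass the test here. Fgf2, a growth factor of injured retina, was 25.9, 30.2 and 28.2 CPM in IgG+Mino and 27.5, 37.8 and 32.7 CPM in APB5+Mino (log2 fold change 0.22, SE 0.125, adjusted p = 0.276). Edn2, an endothelin made by stressed photoreceptors, was 10.3, 10.2 and 4.58 CPM in IgG+Mino and 3.01, 6.24 and 3.85 CPM in APB5+Mino (log2 fold change −0.94, SE 0.344, adjusted p = 0.112). Vegfa, the main angiogenic growth factor, was 153, 172 and 133 CPM in IgG+Mino and 201, 194 and 186 CPM in APB5+Mino, higher in every APB5+Mino library but not past the threshold (log2 fold change 0.35, SE 0.103, adjusted p = 0.0682). Icam1, Lyz2, Tspo, Ndufa4l2 and Pgf had log2 fold changes of −0.33, −0.47, −0.63, −0.57 and −0.05 (adjusted p = 0.714, 0.36, 0.0706, 0.0843 and 0.924). An adjusted p above the threshold does not show that the groups were alike.

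**Figure D3:**
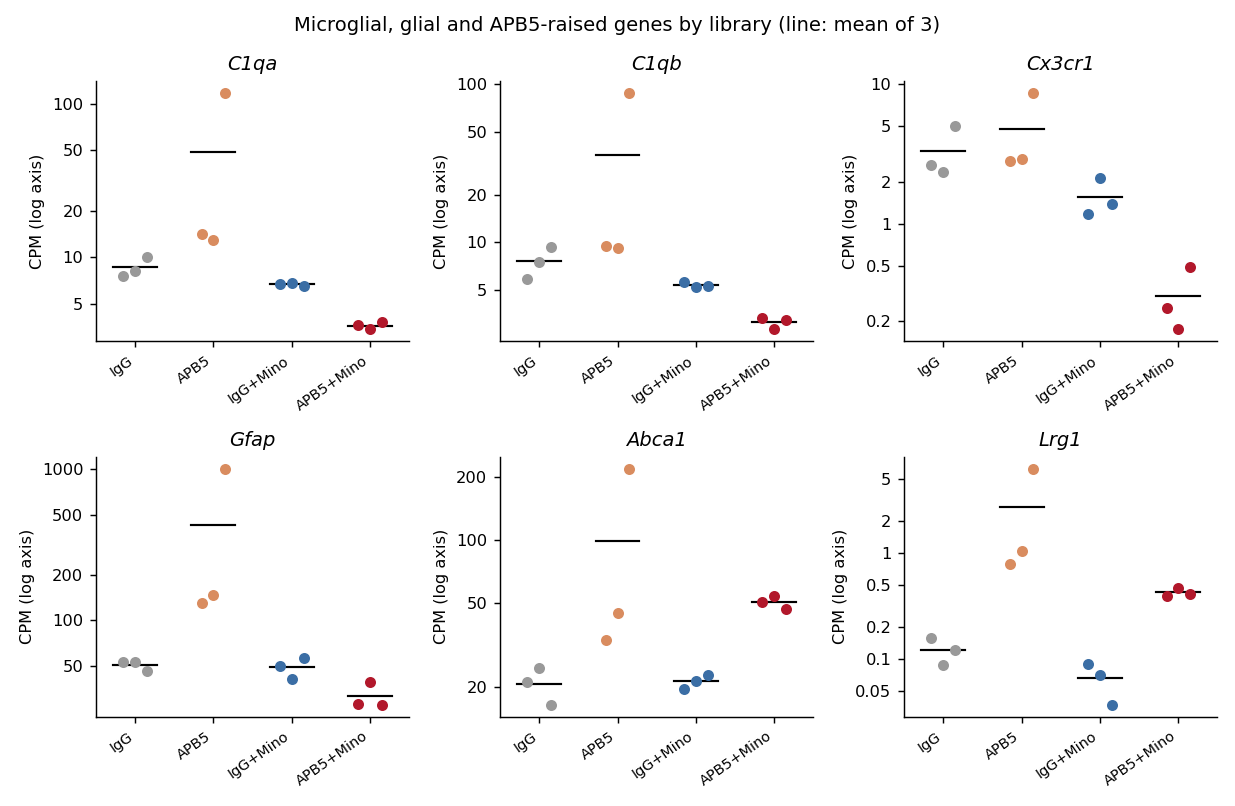
CPM on a log axis of C1qa, C1qb, Cx3cr1, Gfap, Abca1 and Lrg1 in the 12 libraries, with the mean of each group of 3 as a line. C1qa, C1qb and Cx3cr1 are lowest in APB5+Mino, Abca1 and Lrg1 are higher in APB5+Mino than in IgG+Mino, and APB5 replicate 3 is the high point in all 6 genes.

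To see what was left of the APB5 difference, genes that differed between APB5 and IgG were followed into the minocycline groups. No gene was called between APB5 and IgG by edgeR's quasi-likelihood test (0 of 19278, 0%), whereas 1415 (7.34%) had an unadjusted p under 0.05 and DESeq2 called 76 higher and 7 lower. APB5 replicate 3 stood apart, with summed rod markers of 10728 CPM against 41490.5 CPM or more in the other 11 libraries. The genes were therefore taken at an unadjusted p under 0.05 and a difference of at least 1 on the log2 scale, which gave 626 higher genes (3.25%) and 89 lower genes (0.462%).

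Of the 626 higher genes, 549 were tested under minocycline. Their median log2 fold change was 1.64 without minocycline and −0.15 with it, and 218 of them, 39.7% (95% exact binomial interval 35.6 to 43.9, which takes genes as independent), were higher in APB5+Mino than in IgG+Mino, against 48.7% of all genes. When the genes were chosen without APB5 replicate 3, 46.9% were higher. Of the 78 tested lower genes, 37 were lower under minocycline, 47.4% against 51.3% of all genes.

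A small group of the APB5-raised genes was still higher under minocycline: 18 of 549, or 3.28%, were called higher, against 0.838% of all genes. Without APB5+Mino replicate 3 it was 1 of 559, and 6 of 145 when the genes were chosen without APB5 replicate 3. By the rule used to choose them, an unadjusted p with the fold threshold, 22 (4.01%, against 1.48% of all genes) were higher and 20 (3.64%, against 0.806%) were lower. Abca1, given above, was among those called higher. Lrg1, a glycoprotein of activated endothelium, was 0.0905, 0.0708 and 0.0371 CPM in IgG+Mino and 0.394, 0.470 and 0.414 CPM in APB5+Mino (log2 fold change 2.16, SE 0.358, adjusted p = 0.0169), and its log2 fold change without minocycline was 4.17. It was the 1 gene of 6 tested on the endothelial activation list that passed, and the other 5 were below 0, with a list median of −0.31. Adm, which encodes the vasodilator adrenomedullin, was 0.199, 0.124 and 0.148 CPM in IgG+Mino and 1, 0.450 and 0.432 CPM in APB5+Mino (log2 fold change 1.78, SE 0.409, adjusted p = 0.0368). Lrg1 and Adm were low in every library, and their groups did not overlap, as in 17.7% of all genes in that direction. Of the 6 fits that left out a library, Lrg1 was called in 3 and Adm in 1.

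The group also held Clcf1, a ligand of the CNTF receptor (1.25), the filamin Flnc (1.49), the prostaglandin F receptor Ptgfr (1.53), the lipid droplet protein Plin4 (1.51), the phosphatase Lpin3 (1.70), the oxidase Aox1 (1.66) and Ch25h, which makes 25-hydroxycholesterol (1.18), with log2 fold changes in parentheses. The last were Fosl1, Csf2rb2, Eppk1, Map3k6, Fam167a, Pde3b, Rab7b and 9330188P03Rik, with log2 fold changes between 1.06 and 1.66. Without minocycline the log2 fold change was 1.54 for Aox1 and 1.55 for Lpin3. These genes were chosen on both comparisons, so their shared direction is no further finding.

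Another 8 of the 549, or 1.46%, were called lower under minocycline, against 0.343% of all genes, and this count was 0 without APB5+Mino replicate 3 and 1 when the genes were chosen without APB5 replicate 3. These were the immediate early genes Egr2, Egr4 and Nr4a3, the microglial Fcrls, Cebpb, Angpt1, which encodes a Tie2 ligand that pericytes supply, Cox8b and Ccdc3. Nr4a3 was 15.2, 21.6 and 32.0 CPM in IgG+Mino and 8.63, 7.89 and 5.66 CPM in APB5+Mino (log2 fold change −1.62, SE 0.259, adjusted p = 0.0158), against a log2 fold change of 1.92 without minocycline. Angpt1 was 0.869, 1.52 and 1.78 CPM in IgG+Mino and 0.680, 0.607 and 0.545 CPM in APB5+Mino (log2 fold change −1.14, SE 0.293, adjusted p = 0.0481), against 1.29 without minocycline. It was called in 1 of the 6 fits that left out a library. Among the APB5-lowered genes, the splicing regulator Esrp1 was called lower under minocycline as well (log2 fold change −1.70, and −2.39 without), and Aldh8a1 was called higher (1.59).

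The called genes were also followed back into the libraries without minocycline. Of the 159 genes called higher, 146 were tested in APB5 against IgG, 63 of them (43.2%, against 49.5% of all genes) were above 0, and their median was −0.07. Of the 65 called lower, 64 were tested, 18 (28.1%, against 50.5%) were below 0, and their median was 0.31.

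**Figure D4:**
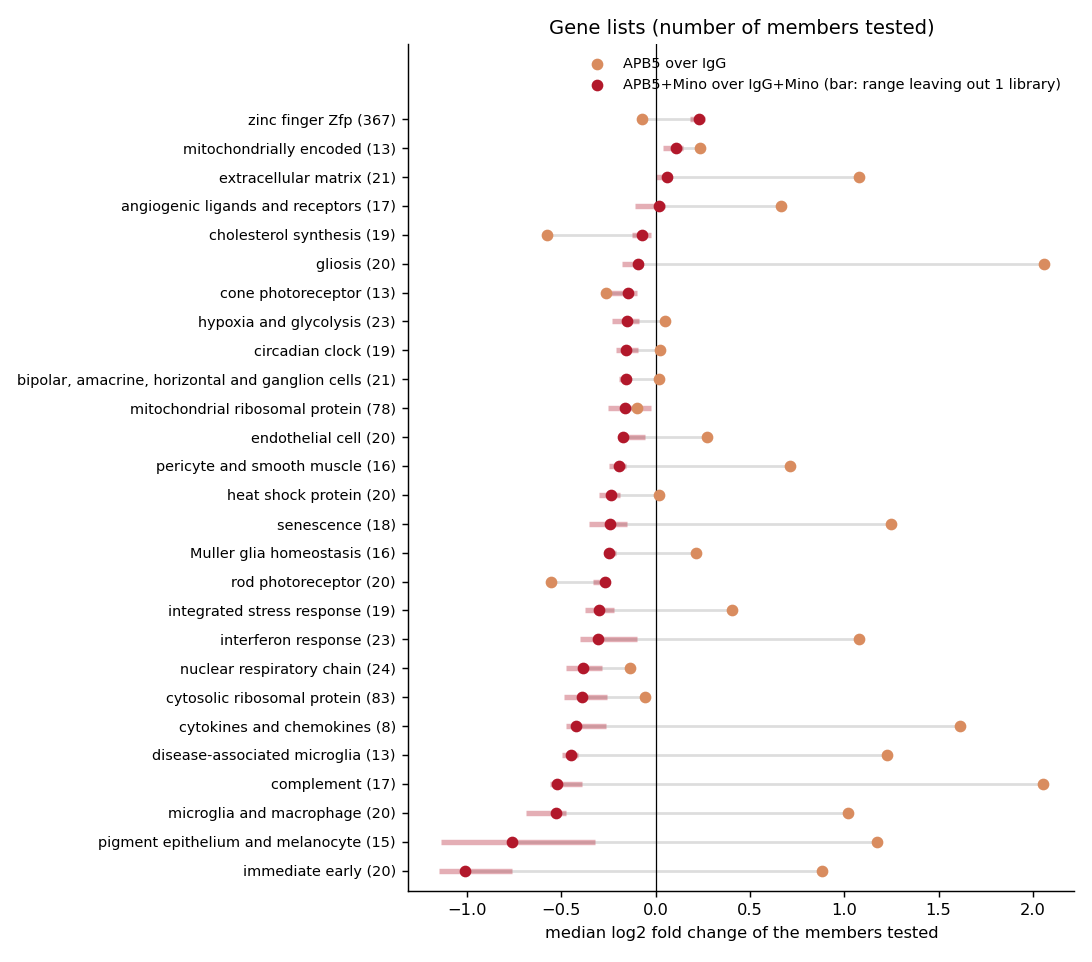
Median log2 fold change of each gene list, with the number of members tested, for APB5 over IgG and for APB5+Mino over IgG+Mino, with bars for the range of the minocycline median when any 1 of the 6 libraries is left out. The gliosis, complement and microglial medians lie at 1.02 to 2.06 without minocycline and at −0.53 to −0.09 with it, and the immediate early list has the lowest minocycline median of those drawn, −1.01. No gene was called in APB5 against IgG by edgeR's quasi-likelihood test.

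Photoreceptor genes were slightly lower in APB5+Mino. Of 20 rod genes tested, 8 were lower at an adjusted p of at most 0.05 (40%, against 3.35% of all genes) and none was higher. The median was −0.27 (−0.33 to −0.25 leaving out 1 library, with 0 to 9 members lower). Without minocycline the rod median was −0.56, with 0 of 20 genes above 0, and APB5 replicate 3 was the library low in rod markers. Rcvrn, the calcium sensor recoverin, was 919.5, 972 and 944 CPM in IgG+Mino and 687, 635 and 628 CPM in APB5+Mino (log2 fold change −0.54, SE 0.0762, adjusted p = 0.0125). Gnat1, rod transducin, was 12906, 13048 and 14118 CPM in IgG+Mino and 9469.6, 9754 and 9745 CPM in APB5+Mino (log2 fold change −0.47, SE 0.0669, adjusted p = 0.0125). In both genes every APB5+Mino library was below every IgG+Mino library. Gngt1 (−0.52), Rom1 (−0.47), Pde6g (−0.44), Prph2 (−0.38) and Gnb1 (−0.28) also passed.

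Genes of other retinal cells differed by similar amounts. Among 13 cone genes, Pde6h (−0.65) and Gngt2 (−0.59) were lower (15.4%, against 3.35% of all genes) and Ccdc136 (0.40) was higher (7.69%, against 4.84%). Of 21 genes of bipolar, amacrine, horizontal and ganglion cells, 7 were lower (33.3%) and none was higher. The lower ones included Sncg (−0.57), Calb2 (−0.52), Calb1 (−0.43) and Thy1 (−0.38). Müller glial genes were lower in 5 of 16 (31.2%), and in 0 to 8 when 1 library was left out. Among them were Crym at −0.68, Dbi at −0.56 and Rlbp1, the retinaldehyde-binding protein, at −0.53. The others were Apoe and Clu, already counted above among disease-associated microglial and complement genes. Rlbp1 was 408, 362 and 366 CPM in IgG+Mino and 258, 257 and 269 CPM in APB5+Mino. Of 15 pigment epithelium and melanocyte genes only Rlbp1, which Müller cells share, passed, and the median of −0.76 ranged over −1.14 to −0.32 when 1 library was left out. The lens list had a median of −2.15 and no member that passed in edgeR's test, and without IgG+Mino replicate 3 its median was 2.03.

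Few genes of protein and energy metabolism passed edgeR's test. Of 83 cytosolic ribosomal protein genes, 80 were below 0 with a median of −0.39, and 2 (2.41%, against 3.35% of all genes) were lower at the adjusted p. All 24 nuclear genes of the respiratory chain were below 0 with a median of −0.38, and 1, Ndufa4 (−0.52), passed (4.17%). In this fit the share that passed was near that of all genes in both lists, but it depended on the method. DESeq2 had 42 of the 83 and 14 of the 24 lower at the adjusted p, against 1610 of 18974 genes. Groups did not overlap on the lower side in 47 and 16 of them, against 17.9% of all genes. The 13 mitochondrially encoded genes had a median of 0.11, and none passed. Of 20 heat shock protein genes, 5 were lower (25%), among them Hspa5, a chaperone of the endoplasmic reticulum (log2 fold change −0.53, adjusted p = 0.0125).

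Clock genes were lower more often than all genes, while 1 interferon and 1 cytokine gene passed. Of 19 clock genes, beside Ciart, Sik1 (−0.95), Per1 (−0.69), Nfil3 (−0.56) and Nr1d1 (−0.44) were lower and Per2 (0.49) was higher. That was 26.3% lower and 5.26% higher, against 3.35% and 4.84% of all genes. The hour of collection is not given in the labels. Of 23 interferon genes, 19 were below 0 with a median of −0.30, and B2m, the light chain of MHC class I, was the 1 that passed (log2 fold change −0.48, adjusted p = 0.0396), or 4.35% against 3.35% of all genes. Of 8 tested cytokine and chemokine genes, Cxcl16 was lower in edgeR's test (log2 fold change −0.44, adjusted p = 0.0455), or 12.5% against 3.35% of all genes. With 1 gene passing in each, these counts are no result about the interferon or cytokine list. In the 6 fits that left out a library, B2m and Cxcl16 each passed the adjusted p in 1.

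Single genes of the endothelial, pericyte and angiogenic lists passed, and such counts are no result about these lists. Of 20 endothelial genes, Cldn5, a tight junction claudin of the blood-retina barrier, was 12.7, 11.3 and 11 CPM in IgG+Mino and 7.48, 6.01 and 5.96 CPM in APB5+Mino (log2 fold change −0.84, SE 0.138, adjusted p = 0.0165). Lrp8, a reelin receptor, was 69.8, 78.9 and 79.8 CPM in IgG+Mino and 117, 141 and 128 CPM in APB5+Mino (log2 fold change 0.76, SE 0.0949, adjusted p = 0.0119). Thus 1 gene of this list was lower (5%, against 3.35% of all genes) and 1 higher (5%, against 4.84%), with a median of −0.17. Of 16 pericyte and smooth muscle genes, Vtn was lower in edgeR's test (log2 fold change −0.35, adjusted p = 0.0397), and the median was −0.19. That was 6.25% of the list, against 3.35% of all genes. The summed pericyte markers Pdgfrb, Rgs5 and Kcnj8 were 66.3 to 76.6 CPM in IgG+Mino and 57.2 to 65.2 CPM in APB5+Mino. Among 17 angiogenic ligands and receptors Angpt1 passed (5.88%, lower, against 3.35% of all genes). In the 6 fits that left out a library, Vtn and Angpt1 each passed the adjusted p in 1. Of 23 hypoxia and glycolysis genes Eno1 (−0.38), Gapdh (−0.46) and Bnip3 (−0.33) were lower (13%) and Adm was higher (4.35%). Of 21 matrix genes, Col6a1 (0.57) and the laminin chain Lama1 (0.72) were higher (9.52%) and Mmp14 (−0.42), a membrane-bound metalloproteinase, was lower (4.76%).

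Zinc finger genes named Zfp were mostly higher. Of 367 tested, 285 were above 0. At an adjusted p of at most 0.05, 71 (19.3%, against 4.84% of all genes) were higher and 5 (1.36%, against 3.35%) were lower. The median was 0.23 (0.18 to 0.26 leaving out 1 library, with 0 to 112 members higher and 0 to 14 lower). In APB5 over IgG the list median was −0.07. Those called higher were Zfp493 (1.25), Zfp72 (1.22), Zfp469 (1.10), Zfp599 (1.06) and Zfp418 (1.02), and Zfp36, an RNA-binding protein despite its name, was called lower. Reads of near-identical zinc finger genes may be split among copies.

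The Zfp genes had transcripts of a median length of 3154 bases and 45.1% GC, against 2326 bases and 50.4% for all genes. Over the 17580 genes with both values, the median log2 fold change was −0.16 in the shortest of 5 equal bins of transcript length and 0.10 in the longest, and the share of genes higher at an adjusted p of at most 0.05 was 2.56% and 9.73%. After correction of the counts for length and GC content the median of the Zfp list was 0.17, that of the cytosolic ribosomal protein list −0.31 and that of the immediate early list −0.91.

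**Figure D5:**
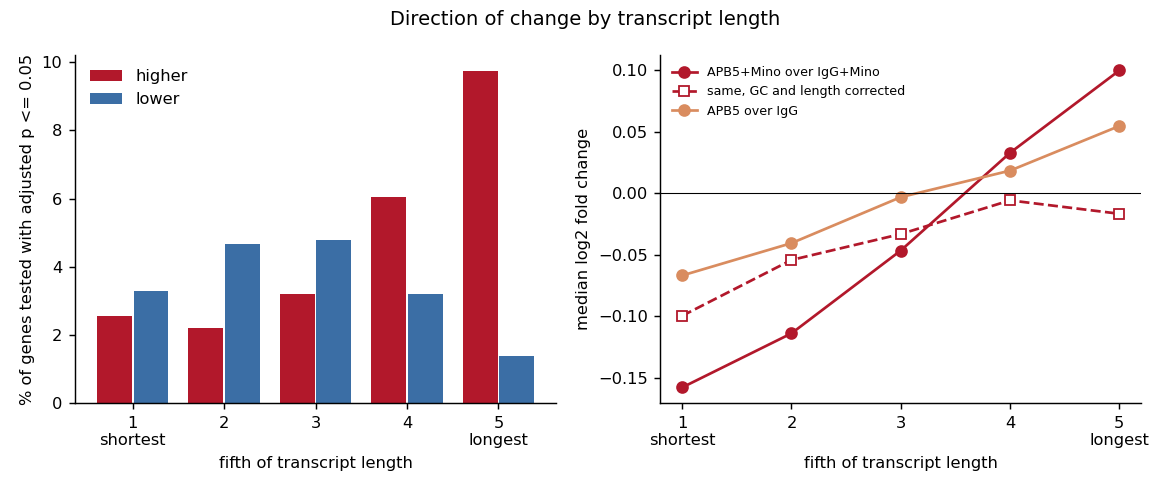
Genes split into 5 equal bins by transcript length: on the left, the percentage of genes tested that were higher or lower in APB5+Mino at an adjusted p of at most 0.05, and on the right, the median log2 fold change in APB5+Mino over IgG+Mino before and after the length and GC correction and in APB5 over IgG. The share of higher genes is 2.56% in the shortest bin and 9.73% in the longest.

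The share of genes called higher differed between gene classes. Over all genes tested, 0.838% were called higher and 0.343% lower. Of 1651 lncRNA genes tested, 45 (2.73%) were called higher and 3 (0.182%) lower. Of 1394 genes without a GENCODE entry, 50 (3.59%) were called higher and 6 (0.43%) lower. Among 14097 protein-coding genes, 59 (0.419%) were called higher and 46 (0.326%) lower. Without the fold threshold the classes were closer, with 4.97% of lncRNA genes, 6.03% of genes without a GENCODE entry and 5.26% of protein-coding genes higher at an adjusted p of at most 0.05.

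Whether the APB5 difference with minocycline differed from that without was tested as an interaction over all 12 libraries. It was called for 3 of 20063 genes (0.015%) by edgeR's quasi-likelihood test, each with a lower APB5 difference under minocycline, and for 0 genes in the other direction, while 3488 genes had an unadjusted p under 0.05 and DESeq2 called 152 higher and 231 lower. Above 0 lay 47.9% of all interaction terms, and 2.49% were higher and 4.63% lower at an unadjusted p with the fold threshold. The called genes were Glycam1, an endothelial sialomucin, Lad1, an anchoring filament protein, and Fgf2os, an antisense RNA of the Fgf2 locus. For Nr4a1 the interaction was −2.65 on the log2 scale and for C4b −4.09, and neither passed adjustment (adjusted p = 0.132 and 0.108).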

How the data were processed

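RNA of mouse retina was sequenced by the authors as stranded, poly-A selected single-read libraries. Reads were processed with bcl2fastq 2.20 and DRAGEN against mm39, and the deposited values are raw read counts per gene. The DRAGEN version and the use of strand in counting are not given in the sources used here. The deposited tables of the authors' own comparisons hold fold changes, their errors, p-values and group means and were not used, and 3 columns that repeat libraries with identical values were not used. Counts were tested with edgeR 4.0.16 in R 4.3.3 (TMM, filterByExpr, quasi-likelihood test, Benjamini-Hochberg over all genes tested, X and Y included), with no covariate, in IgG+Mino and APB5+Mino. DESeq2 1.42.0 and voom of limma 3.58.1 were alternatives. SE is the log2 fold change divided by the square root of F. Scripts were tested on simulated data. Members and gene lists were chosen with earlier results of these data known. Named were the genes the study discusses, up to 10 called genes per direction with the smallest p, no overlap and a mean of at least 1 CPM, up to 4 members per list, and the leading interaction genes. Further genes that passed are named as chosen after their values were seen. Medians and counts were compared with those of all genes. Some genes are not reported here.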

Additional observations from a re-analysis of the deposited data

Results flagged for a closer look

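The APB5 difference under minocycline was another one than without minocycline for 3 genes in the interaction test of edgeR over all 12 libraries. For Glycam1 the interaction was −6 on the log2 scale; the adjusted p was 0.0156, and 0.00149 to 0.12 when any 1 of the 12 libraries was left out. It was 4.77, 4.78 and 6.39 CPM in the APB5 libraries, 0.227, 0.0875 and 0.484 CPM in IgG and 0.235, 0.195 and 0.186 CPM in IgG+Mino. It had 13, 11 and 10 counts in IgG+Mino and 2, 2 and 1 counts in APB5+Mino, and had too few reads for the test between these groups.

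For Lad1 the interaction was −2.82, where the adjusted p was 0.0225, and 0.00435 to 0.152 when any 1 of the 12 libraries was left out. It was 2.61, 2.70 and 2.82 CPM in IgG, 9.63, 15.1 and 18.9 CPM in APB5, 3.20, 4.23 and 3.14 CPM in IgG+Mino and 2.13, 3.11 and 2.69 CPM in APB5+Mino. For Fgf2os the interaction was −5.35, where the adjusted p was 0.0225, and 0.00494 to 0.152 when any 1 of the 12 libraries was left out. It was 0.280, 0.245 and 0.656 CPM in IgG, 5.59, 6.94 and 12.1 CPM in APB5, 0.833, 0.956 and 0.390 CPM in IgG+Mino and 0.215, 0.470 and 0.301 CPM in APB5+Mino. Fgf2os lies antisense to Fgf2, and the use of strand in counting is not given in the sources used here, so its reads cannot be told apart from those of Fgf2.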

How the results depend on the processing

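A change of sign was hardly possible for called genes, whose groups did not overlap. All 224 genes called under minocycline, where they were tested, kept their sign in every alternative to the main fit. Their number did not: beside the 159 higher and 65 lower genes, voom with quality weights gave 345 and 197, an unadjusted p with the fold threshold 280 and 153, no fold threshold 919 and 636, and edgeR over all 12 libraries 0 and 0 (3509 genes at an unadjusted p under 0.05), as it did with Xist as a covariate (0 and 0, with 4058). DESeq2 gave 172 and 74. Leaving out 1 library gave 0 to 251 higher and 0 to 173 lower genes. Whether the replicate numbers pair the samples was not settled. Same-numbered libraries correlated by 0.205, 0.0979 and −0.0167 in their deviations from the group means, and other pairs by −0.203 to 0.135. A replicate block gave 220 higher and 85 lower genes, and 145 and 78 together with a GC and length correction. Without the fold threshold the block gave 1983 and 1878. For the interaction, against 0 higher and 3 lower genes, DESeq2 gave 152 and 231, Xist as a covariate 134 and 806 and an unadjusted p 499 and 928, a replicate block gave 0 and 4, and leaving out 1 library gave 0 to 36 and 0 to 75. For APB5 against IgG, against 0 and 0, DESeq2 gave 76 and 7, Xist as a covariate 1040 and 128, an unadjusted p 626 and 89, and leaving out 1 library 0 to 13 and 0 to 2, with 13 and 2 without APB5 replicate 3. The share of APB5-raised genes that were higher under minocycline was 46.9% when chosen without APB5 replicate 3. The causes were not tested. Among values of single genes and lists, 1490 stayed the same, 44 moved, 114 were no longer called and 15 newly were, and none reversed among those called. Here a gene that passed the adjusted p alone counts as the same even when it lost it. C1qa passed the adjusted p in 3 of the 6 fits that left out a library, Gfap in 2, and C1qc, Vtn, B2m and Cxcl16 in 1. With 3 libraries a group, the exact permutation test of a single value cannot go below 0.1.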

Other observations

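Genes of the integrated stress response, which cells start when translation is curbed, were counted as well. Of 19 tested, 1 was higher at an adjusted p of at most 0.05 in edgeR's test and 3 were lower, with a median of −0.30. These were 5.26% higher and 15.8% lower, against 4.84% and 3.35% of all genes. The higher gene was Slc7a11, the cystine importer, which was 3.40, 4.87 and 6.79 CPM in IgG+Mino and 7.39, 10.5 and 11.7 CPM in APB5+Mino (log2 fold change 0.97, SE 0.253, adjusted p = 0.0486). The lower genes were Cebpb (−1.44), Phgdh, which starts serine synthesis (−0.76), and Ppp1r15a (−0.49), with log2 fold changes in parentheses. Of 18 senescence genes 2 were lower (11.1%, against 3.35% of all genes) and none was higher, with a median of −0.24. Of 19 cholesterol synthesis genes 1 was lower (5.26%) and none was higher, with a median of −0.07, while the cholesterol exporter Abca1 was called higher. Of 78 mitochondrial ribosomal protein genes 2 were lower (2.56%, below the 3.35% of all genes) and none was higher, with a median of −0.16.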
